A study of Mus musculus with 18 samples.

Results

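Quadriceps muscle of fed PGC-1β muscle knockout (MKO) mice was compared with that of fed wild type (WT) mice across the transcriptome, by the RNA-seq of 5 fed MKO and 4 fed WT libraries. These were 9 of the 18 libraries of the study, chosen by their genotype and feeding labels, and the other 9 came from MKO and WT mice fasted for 24 h. MKO mice carried a floxed Ppargc1b gene, from which Cre under the human skeletal actin (HSA) promoter removes exons 4 to 6, and WT mice carried the floxed gene without Cre. All were adult males, and fed mice had food ad libitum. The labels give the strain as C57Bl6/J, and the methods name the floxed line as B6.129X1. The muscle is given as quadriceps in the sample labels, whereas the methods of the study name the Gastrocnemius. The labels call the samples of a group biological replicates.

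PGC-1β is a transcriptional coactivator. It binds no DNA itself and is brought to genes by factors such as the estrogen-related receptors and the nuclear respiratory factors, and it is known as a driver of mitochondrial biogenesis and oxidative metabolism in muscle and other tissues. Its relative PGC-1α shares many of these targets. The respiratory chain is built from subunits encoded in the nucleus, which are imported, and from a small set encoded by the mitochondrial genome itself.

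The deposited values were TPM (transcripts per 1e6), each the share of a gene among all transcripts measured, without counts. Read depth and counting error are therefore unknown. Transcripts of the mitochondrial genome took 67.3% to 70.4% of the TPM in fed MKO and 74.3% to 75.0% in fed WT libraries (difference of −5.86 points, two-sided exact permutation test over libraries, p = 0.00794, the smallest that 5 against 4 libraries allow). A smaller share of one kind raises all other shares, and on the log2 scale the median gene lay 0.25 higher in the deposited MKO libraries. All levels below are therefore scaled TPM, that is, TPM after each library was brought to the same median over the genes tested, and changes are log2(scaled TPM + 0.1) of MKO minus WT with the standard error of the fit. The direction of a small change is thus relative to the median gene. The 9 libraries had 11145 to 11958 genes at 0.5 TPM or more. Muscle fiber markers (7 genes, among them Acta1 and Ckm) summed to 44555 to 51886 scaled TPM in MKO and 45876 to 52374 in WT libraries, and markers of lymphocytes and of liver summed to less than 1 in every library. In bulk tissue, fewer cells of a type and less RNA per cell cannot be told apart.

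One library stood apart. In MKO fed replicate 3, the nuclear-encoded subunits of the respiratory chain lay at a median of −0.01 relative to the WT mean, whereas they lay at −0.46, −0.41, −0.35 and −0.49 in MKO fed replicates 1, 2, 4 and 5, and between −0.02 and 0.03 in the 4 WT libraries. It had the highest level of the 5 MKO libraries in 78 of 83 subunits. For the genes of the mitochondrial genome it did not stand apart, with a median of −0.36 relative to the WT mean, against −0.38, −0.35, −0.37 and −0.54 in MKO fed replicates 1, 2, 4 and 5. Counts of calls over all genes and over respiratory chain genes are given with and without it.

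Of 11714 genes tested with limma, 164 (1.4%) passed a Benjamini-Hochberg adjusted p of 0.05 and are called below. Fewer of them were higher in MKO (48, or 0.41% of the genes tested) than lower (116, or 0.99%), and 34 had changed at least 2-fold, 21 of them higher and 13 lower. The 48 include 11 gene models with satellite-like sequence, described below, each changed at least 2-fold. These 11 share sequence and are not independent of each other. Calls within gene lists below are to be read beside these percentages, and 1 call is not read as a result about its list. The groups did not overlap for 163 of the 164 (of all genes tested, 709, or 6.05%, had groups that did not overlap, 2.14% higher and 3.91% lower in MKO). Called genes that were higher had a median change of 0.82, and called genes that were lower a median size of change of 0.52. Of the called genes, 6 of the higher ones lay below 0.5 TPM in every WT library and 2 of the lower ones in every MKO library, so that they passed the filter on low values through the other genotype alone. Of these 6 higher ones, 5 were the satellite-like gene models. At an unadjusted p under 0.05 there were 1648 genes. The split depends on the scaling, since with TPM as deposited 4233 genes (36.1%) were called, 4147 of them higher (35.4%) and 86 lower (0.734%). All 48 genes called higher and 61 of the genes called lower were called under both scalings, and the other lower genes kept a change below 0. Without MKO fed replicate 3, 270 genes (2.32%) were called, 50 higher (0.429%) and 220 lower (1.89%). Leaving out any single one of the 9 libraries left from 69 to 270 calls, and 53 genes (22 higher and 31 lower) were called in every one of these 9 fits.

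**Figure D1:**
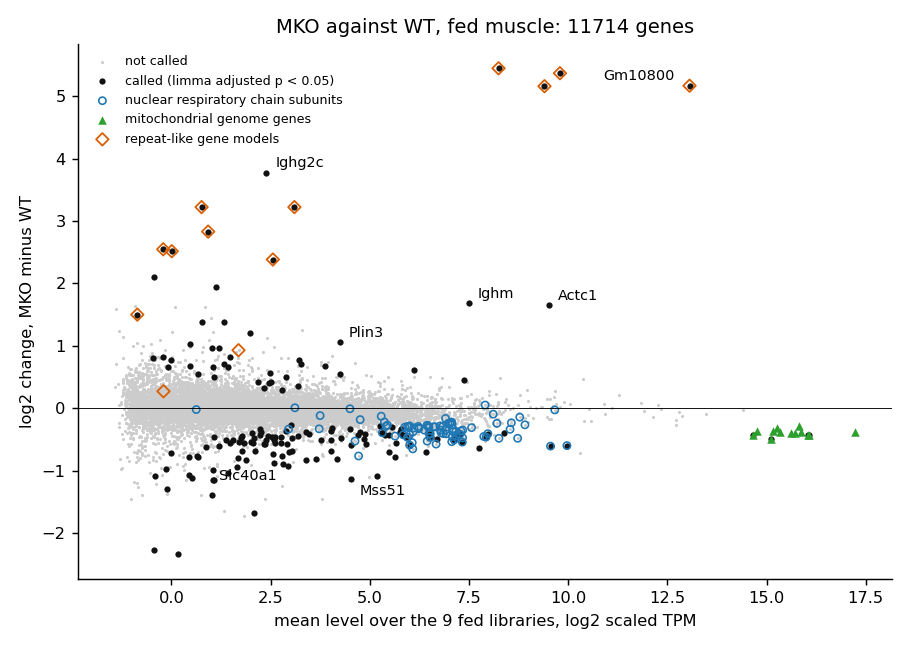
Log2 change (MKO minus WT) of each of the 11714 genes against its mean level over the 9 fed libraries (log2 scaled TPM), with black points for the 164 called genes. Open circles are nuclear respiratory chain subunits, triangles genes of the mitochondrial genome, which lie at the highest levels and below 0, and diamonds the repeat-like gene models, which hold the highest changes.

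The targeted gene came first. Ppargc1b, the gene of PGC-1β (ENSMUSG00000033871, chromosome 18, 61298136 to 61400431, GRCm38, the build of all positions here), had 1.84, 1.66, 2.15, 2.16 and 1.99 scaled TPM in the 5 fed MKO libraries, against 2.19, 2.04, 1.61 and 1.72 in the 4 fed WT libraries. The groups overlapped, and no difference was called (0.05 ± 0.12, adjusted p = 0.878, limma). TPM of the whole gene also count reads from the exons that remain, so this value does not check the deletion. Ppargc1a, the gene of PGC-1α, had 10.1, 9.52, 13.4, 12.5 and 10.2 scaled TPM in MKO, against 9.88, 10.2, 9.88 and 11.2 in WT libraries (0.10 ± 0.11, adjusted p = 0.701, limma). Of 23 genes of PGC-1 coactivators and their partner factors, none was called by limma (unadjusted p under 0.05: 3 higher, 0 lower), and the list's median change of −0.00 lay beside a median of −0.01 over all genes tested. Nrip1, a corepressor of nuclear receptors, had a change of 0.61 (adjusted p = 0.14, limma).

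Transcripts of the respiratory chain lay lower in MKO muscle relative to the median gene, by small amounts and in nearly every subunit. Of 83 nuclear genes of the subunits of complexes I to V and cytochrome c, 81 had a change below 0, with a median of −0.33 and a range of −0.76 to 0.05. Of these, 14 (16.9%) were called lower and 0 higher, where 0.99% of all genes tested were called lower, and at an unadjusted p under 0.05 the 5 complexes held 31, 3, 9, 10 and 12 lower genes and 0 higher ones. Without MKO fed replicate 3, 63 of the 83 were called lower. The count fell to 3, 4, 4 and 2 without MKO fed replicates 1, 2, 4 and 5, and to 4, 4, 2 and 2 without WT fed replicates 1 to 4. With TPM as deposited the median was −0.07, and 4 were called lower and 3 higher.

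Complex I, the NADH dehydrogenase, had 5 of 36 nuclear subunits called lower (Ndufv2, Ndufa7, Ndufs7, Ndufa13 and Ndufb8) and a median of −0.32. Complex II, the succinate dehydrogenase, had a median of −0.33 over 4 genes and none called by limma. Complex III with cytochrome c, its electron carrier, had the lowest median of the 5 (−0.43), and Uqcr10 and Cyc1 were called among its 10 genes. Complex IV, the cytochrome c oxidase, had 4 of 16 called (Cox6b1, Cox6c, Cox7a2 and Ndufa4) with a median of −0.31, and complex V, the ATP synthase, had 3 of 17 (Usmg5, Atp5o and Atp5d) with a median of −0.31. Cyc1 was the called gene whose groups overlapped.

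Cox6b1, a subunit at the interface of the complex IV dimer (ENSMUSG00000036751, chromosome 7, 30616861 to 30626151), had 599, 589, 733, 569 and 567 scaled TPM in MKO, against 919.6, 946, 952 and 889 in WT libraries. All MKO libraries lay below all WT libraries, and MKO fed replicate 3 was the highest of them. The change of −0.61 ± 0.08 (adjusted p = 0.0054, limma) was called without any single library (highest adjusted p = 0.0266). Usmg5, a small subunit of the ATP synthase that takes part in its dimers (ENSMUSG00000071528, chromosome 19, 47083464 to 47090647), had 888, 793, 921, 753 and 726 scaled TPM in MKO, against 1207, 1338, 1133 and 1248 in WT libraries. The change was −0.60 ± 0.09 (adjusted p = 0.00845, limma), and it too was called without any single library (highest adjusted p = 0.0383). Cox6b1 and Usmg5 were the only ones of the 14 subunits called in each of the 9 fits that left out a library.

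The other 12 called subunits were lost in 3 to 8 of these fits. Ndufv2, a flavoprotein-arm subunit of complex I, had 130.4, 128, 157, 136 and 122 scaled TPM in MKO, against 187, 181, 171 and 178 in WT libraries (−0.41 ± 0.08, adjusted p = 0.028, limma), and its adjusted p reached 0.089 without 1 library. Atp5o, a subunit of the stalk of the ATP synthase, had 114, 125, 144, 123 and 117 scaled TPM in MKO, against 177, 159.7, 170.3 and 169 in WT libraries (−0.44 ± 0.08, adjusted p = 0.0199, limma, up to 0.0723 without 1 library). For both genes MKO fed replicate 3 was the highest of the MKO libraries and still below every WT library. The remaining 10 were Cox6c (−0.59, adjusted p = 0.0381), Cox7a2 (−0.51, adjusted p = 0.0381), Ndufa4 (−0.46, adjusted p = 0.0473), Ndufa13 (−0.47, adjusted p = 0.0398), Ndufb8 (−0.42, adjusted p = 0.0458), Ndufs7 (−0.41, adjusted p = 0.0338), Ndufa7 (−0.39, adjusted p = 0.028), Uqcr10 (−0.41, adjusted p = 0.0338), Cyc1 (−0.54, adjusted p = 0.0477) and Atp5d (−0.41, adjusted p = 0.0342, all limma). Their adjusted p reached 0.0964 for Ndufa7 to 0.152 for Cyc1 when 1 library was left out.

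Several other subunits did not pass. Cycs, the gene of cytochrome c, had 136, 115, 173, 137 and 132 scaled TPM in MKO, against 201, 197, 181 and 183 in WT libraries (−0.47 ± 0.10, adjusted p = 0.0515, limma). Cox5b of complex IV had 45.9, 47.9, 78.01, 56.3 and 45.4 scaled TPM in MKO, against 84.6, 77.4, 82.8 and 91.7 in WT libraries (−0.65 ± 0.15, adjusted p = 0.0568, limma). In Cox5b, 4 MKO libraries lay below every WT library and MKO fed replicate 3 lay within the WT range. Cox7c of complex IV had the lowest fitted change of the 83 (−0.76 ± 0.16, adjusted p = 0.05, limma) and was not called. Values for Cox4i1 of complex IV (−0.41, adjusted p = 0.181), Sdhb of complex II (−0.45, adjusted p = 0.175), Uqcrc2 of complex III (−0.35, adjusted p = 0.216) and Atp5a1 of complex V (−0.23, adjusted p = 0.387, all limma) were below 0 without a call. Without MKO fed replicate 3, Cycs, Cox5b, Cox7c, Cox4i1, Sdhb and Uqcrc2 were called lower (adjusted p = 0.00525, 0.00191, 0.00331, 0.0076, 0.0236 and 0.0473 in this order, limma).

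**Figure D2:**
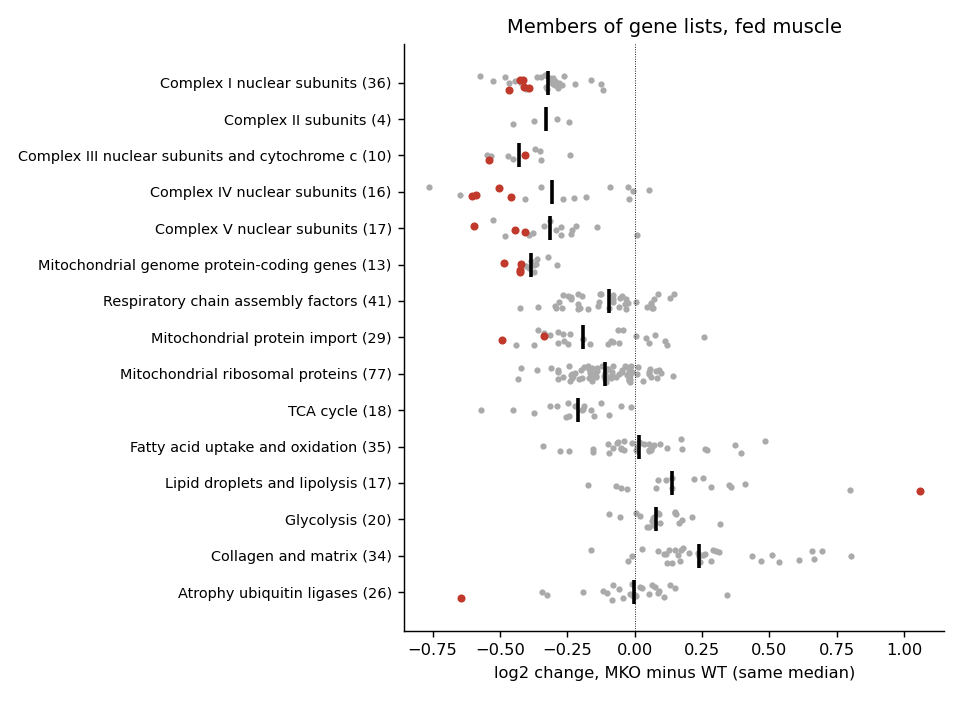
Log2 change (MKO minus WT at the same median) of each member of 15 gene lists, with the number of members tested beside each name. Red points are called genes, gray points are not called, and the bar is the median, which lies between −0.43 and −0.31 for the nuclear subunits of the 5 complexes and at −0.39 for the mitochondrial genome.

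Promoter sequence was searched for 2 motifs, since the subunits moved together. The windows were 250 bases before to 50 after the start of each gene in RefSeq (GRCm38.p6; 27025 genes), read on both strands. CCGGAAG, the core of sites for GABP (nuclear respiratory factor 2), was found in 17 of 68 matched subunits (25.0%), where 9.93% of the 27025 genes held it. AAGGTCA, the half-site of estrogen-related receptors, was found in 9 of 68 (13.2%, against 5.38% of the 27025 genes). The 27025 genes were not limited to those tested in muscle, and the share among the genes tested was not counted. Of the 14 called subunits 12 were matched, and CCGGAAG was in the windows of Cox6b1 and Usmg5 (Atp5md in RefSeq), and AAGGTCA in none of the 12. A match is a description of the sequence and not a bound site, and since both motifs have AAG at an end, their matches can overlap. The 250 bases before the RefSeq start of Cox6b1, the subunit with the lowest change among those called, read as follows, 5′ to 3′ on the minus strand of GRCm38 (chr7:30626115-30626364), with the CCGGAAG match, which lies on the opposite strand, in capitals. The gene as annotated in GENCODE starts further upstream, so that the end of this stretch, the match included, lies within the gene by the coordinates given above.
Cox6b1 window: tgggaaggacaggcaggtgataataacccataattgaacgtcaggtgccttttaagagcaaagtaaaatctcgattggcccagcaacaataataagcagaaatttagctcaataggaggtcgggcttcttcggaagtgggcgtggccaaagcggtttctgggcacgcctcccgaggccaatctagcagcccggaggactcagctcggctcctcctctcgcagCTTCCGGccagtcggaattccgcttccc

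The mitochondrial genome encodes 13 proteins, whose genes all had levels in the 5 MKO libraries below those of all 4 WT libraries, with a median change of −0.39. Of all genes tested, 3.91% lay lower in MKO without overlap. The 13 genes are part of the mitochondrial share given above, so their separation is not independent of that difference. Of the 13, 4 were called lower (30.8%, against 0.99% of all genes tested), namely mt-Nd3 and mt-Nd6 of complex I and mt-Co1 and mt-Co3 of complex IV. mt-Nd3 had 30986, 31602, 31191, 28304 and 28297 scaled TPM in MKO, against 36421, 46169, 41947 and 44278 in WT libraries (−0.48 ± 0.10, adjusted p = 0.0367, limma). mt-Co1 had 56961, 59694, 61498, 59833 and 53576 scaled TPM in MKO, against 77048, 77085, 75673 and 83089.7 in WT libraries (−0.42 ± 0.09, adjusted p = 0.0444, limma). In both genes the lowest WT library exceeded the highest MKO library. The changes of mt-Nd6 and mt-Co3 were −0.43 and −0.42 (adjusted p = 0.0347 and 0.0402, limma). As deposited the median of the 13 was −0.12 and 1 was called lower. With single libraries left out the number called was 7 without MKO fed replicate 3, 2 without WT fed replicate 1, 1 without MKO fed replicate 1 and 0 without any other.

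**Figure D3:**
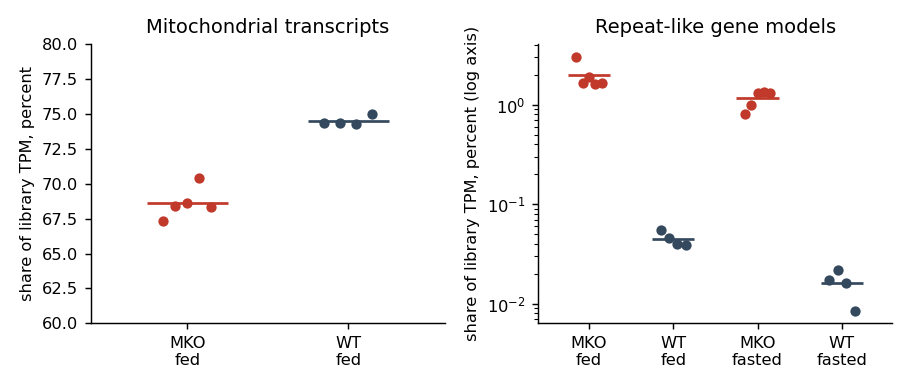
Left, share of each library's TPM (percent) taken by transcripts of the mitochondrial genome, with the mean as a line; the 5 fed MKO libraries (67.3% to 70.4%) lie below the 4 fed WT libraries (74.3% to 75.0%). Right, share of TPM taken by 13 repeat-like gene models in all 18 libraries on a log axis, where MKO libraries lie above WT libraries in fed and fasted muscle.

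Lists of other mitochondrial proteins moved less. Of 29 genes of the import machinery, which brings nuclear-encoded proteins into the organelle, 22 had a change below 0 (median −0.19), and Timm23 and Tomm40 were called lower (0.99% of all genes tested were called lower). Timm23, the channel of the inner membrane (ENSMUSG00000013701, chromosome 14, 32180162 to 32201898), had 90.9, 93.99, 95.9, 78.99 and 78.8 scaled TPM in MKO, against 124, 122, 122 and 124 in WT libraries (−0.49 ± 0.07, adjusted p = 0.00972, limma, up to 0.0417 without 1 library). The highest MKO library lay well below the lowest WT library, and the 4 WT libraries were close together. Tomm40, the channel of the outer membrane, had a change of −0.34 (adjusted p = 0.0474, limma), which was lost in 8 of the 9 fits that left out a library. None of 41 assembly factors (median −0.10; unadjusted p under 0.05: 0 higher, 10 lower), 77 mitochondrial ribosomal proteins (median −0.11; 0 and 18) and 18 genes of fusion, fission and cristae (median −0.16; 0 and 7) was called by limma. Across the alternative settings listed below, up to 5 genes each of import, assembly factors and mitochondrial ribosomal proteins were called lower. Up to 11, 8 and 15 were called higher in the same order, as with TPM as deposited.

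Enzymes of fuel use held no calls in the fit reported here. All 18 TCA cycle genes had a change below 0 (median −0.21), and none was called by limma (unadjusted p under 0.05: 0 higher, 8 lower). Across the alternative settings listed below, 0 to 7 TCA cycle genes were called lower and 0 to 1 higher. Idh3b, a subunit of isocitrate dehydrogenase, had 43.5, 46.6, 70.9, 49.5 and 44.2 scaled TPM in MKO, against 82.98, 67.8, 71.4 and 76.2 in WT libraries (−0.57 ± 0.13, adjusted p = 0.0696, limma). MKO fed replicate 3 lay within the WT range, the other 4 MKO libraries below it, and without that library the call was made (adjusted p = 0.00225, limma). Of 35 genes of fatty acid uptake and oxidation, 20 lay above and 15 below 0 (median 0.01), and none was called by limma (unadjusted p under 0.05: 1 higher, 3 lower). Of 20 glycolysis genes 18 lay above 0 by small amounts (median 0.08), again with none called by limma (unadjusted p under 0.05: 3 higher, 0 lower). Among these Hk2, which phosphorylates glucose, had a change of 0.32 (adjusted p = 0.177, limma) and Eno3, the muscle enolase, of 0.21 (adjusted p = 0.274, limma; −0.30 after quantile normalization). Across the alternative settings, 0 to 1 of the fatty acid genes were called lower and 0 to 11 higher. For glycolysis genes the counts were 0 lower and 0 to 16 higher. The highest of these counts came with TPM as deposited, where 35.4% of all genes tested were called higher.

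Single genes outside the respiratory chain showed larger changes. Actc1, the cardiac α-actin that skeletal muscle expresses during development and regeneration (ENSMUSG00000068614, chromosome 2, 114047282 to 114053548), had 660.4, 972, 1145, 1094 and 1359 scaled TPM in MKO, against 266, 381, 279 and 394 in WT libraries. The lowest MKO library was above the highest WT library, and the level averaged 3.17 times that of WT. The change of 1.65 ± 0.20 (adjusted p = 0.0022, limma) was called without any single library (highest adjusted p = 0.013). C130080G10Rik (ENSMUSG00000092397, chromosome 2, 114054335 to 114064868), an annotated gene next to Actc1, rose as well (2.99, 2.69, 3.50, 3.21 and 4.02 scaled TPM in MKO, against 0.407, 1.07, 0.663 and 1.14 in WT libraries; 1.95 ± 0.24, adjusted p = 0.00269, limma). It was chosen after its values were seen, and whether counting used strand is not given in the sources used here. Of the 12 developmental and stress sarcomere genes tested, Actc1 was the one called (0.41% of all genes tested were called higher), 11 lay above 0 and the median was 0.24.

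Plin3, a perilipin that coats lipid droplets (ENSMUSG00000024197, chromosome 17, 56277476 to 56292873), had 19.2, 19.9, 32.5, 27.00 and 25.3 scaled TPM in MKO, against 13.4, 12.5, 10.6 and 10.2 in WT libraries (1.06 ± 0.15, adjusted p = 0.00736, limma, up to 0.0341 without 1 library). It was the one called gene of 17 in the list of lipid droplets and lipolysis (median 0.14; 0.41% of all genes tested were called higher), and Plin2 had a change of 0.35 (adjusted p = 0.0923, limma). Aimp2, a scaffold of the multi-tRNA synthetase complex (ENSMUSG00000029610, chromosome 5, 143902704 to 143909847), had 82.3, 85.4, 87.8, 69.7 and 83.3 scaled TPM in MKO, against 50.9, 55.2, 58.2 and 49.05 in WT libraries (0.61 ± 0.08, adjusted p = 0.00473, limma, up to 0.0245). Myom1, a protein of the sarcomeric M-band (ENSMUSG00000024049, chromosome 17, 71002633 to 71126856), had 201, 183, 199, 179.9 and 182 scaled TPM in MKO, against 139, 138, 136 and 139 in WT libraries (0.46 ± 0.06, adjusted p = 0.00384, limma, up to 0.0221). In each of these 3 genes the groups were apart, and for Myom1 the WT libraries were nearly equal.

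Other genes among the highest changes had calls that were lost in at least 1 of the fits that left out a library. Gamt, the last enzyme of creatine synthesis, had 12.6, 12.9, 8.72, 9.61 and 13.3 scaled TPM in MKO, against 6.17, 6.81, 6.77 and 6.46 in WT libraries (0.77 ± 0.13, adjusted p = 0.0148, limma), and its call was lost without WT fed replicate 4 (0.0531). It was the one called of 9 creatine and phosphagen genes (median 0.04), where 0.41% of all genes tested were called higher. Clu, the extracellular chaperone clusterin, had 16.9, 16.8, 17.2, 18.7 and 18.6 scaled TPM in MKO, against 13.8, 9.89, 8.63 and 12.3 in WT libraries (0.68 ± 0.12, adjusted p = 0.0234, limma), and was lost without MKO fed replicates 4 or 5 or WT fed replicate 2 (up to 0.077). Ehd4, an ATPase of endocytic recycling (0.71, adjusted p = 0.0135, limma), was lost without WT fed replicate 3 (0.0541). Gfer, a sulfhydryl oxidase of the mitochondrial intermembrane space (0.55, adjusted p = 0.0326), Fgfrl1, a receptor-like binder of fibroblast growth factors (0.50, adjusted p = 0.0485), Adgrg1, an adhesion receptor (0.42, adjusted p = 0.0427), Adh1, an alcohol dehydrogenase (0.41, adjusted p = 0.0263), Tubb6, a β-tubulin (0.36, adjusted p = 0.0462), and Hgs, a sorting protein of endosomes (0.33, adjusted p = 0.0474, all limma), were lost in 4 to 8 of the 9 fits, with adjusted p up to 0.0956 for Adh1 and up to 0.156 for Hgs.

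**Figure D4:**
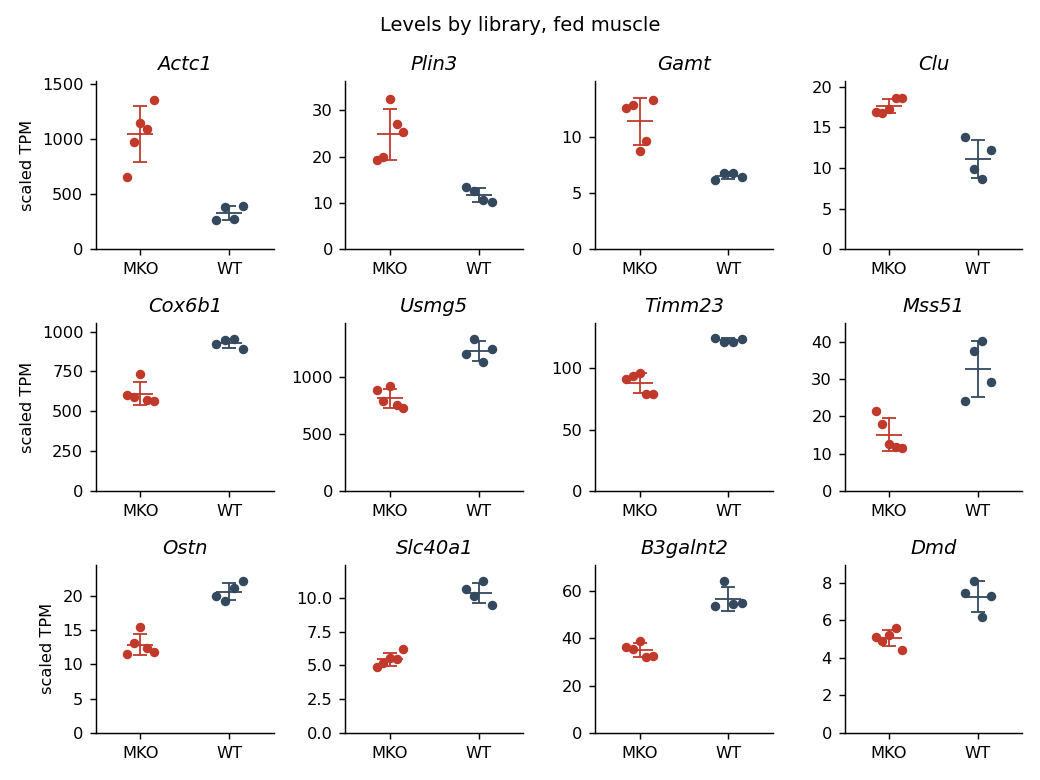
Scaled TPM of 12 genes in each of the 5 fed MKO (red) and 4 fed WT libraries (dark blue), with mean and SD; each panel starts at 0. Actc1, Plin3, Gamt and Clu lie higher in MKO and the other 8 lower, with no overlap of the groups in any panel.

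The immunoglobulin heavy chains Ighg2c and Ighm were also higher, without the genes that accompany them in B lymphocytes. Ighg2c, the constant region of an IgG (ENSMUSG00000076612, chromosome 12, 113285325 to 113288932), had 11.7, 9.82, 8.51, 7.64 and 7.09 scaled TPM in MKO, against 1.16, 0.403, 0.323 and 0.569 in WT libraries (3.77 ± 0.28, adjusted p = 5.71e-05, limma, up to 0.000567). Ighm, the constant region of IgM (ENSMUSG00000076617, chromosome 12, 113418558 to 113422730), had 384, 346, 209, 182 and 178 scaled TPM in MKO, against 131, 55.04, 75.8 and 63.1 in WT libraries (1.68 ± 0.29, adjusted p = 0.0209, limma), and this call was lost without WT fed replicates 2, 3 or 4 (up to 0.0723). Both genes lay higher in every MKO than in every WT library. As deposited, the light chain Igkc had 0.157 to 1.46 TPM in MKO and 0.233 to 0.713 TPM in WT libraries, and Jchain, which joins IgM chains, 0.106 to 0.232 TPM in MKO and 0.0493 to 0.271 TPM in WT libraries. Cd79a of the B cell receptor was at or below 0.119 TPM in MKO and 0.106 TPM in WT libraries. Heavy chain genes resemble each other, and how the authors' counting placed reads that match several of them is not given in the sources used here. These companion genes were chosen after their values were seen.

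Among the lower genes, Slc40a1 had the smallest adjusted p of those named by the rule. It encodes the iron exporter ferroportin (ENSMUSG00000025993, chromosome 1, 45908068 to 45926523) and had 4.88, 5.14, 5.55, 5.44 and 6.22 scaled TPM in MKO, against 10.6, 10.2, 11.2 and 9.46 in WT libraries (−0.92 ± 0.08, adjusted p = 0.000462, limma, up to 0.00328). It was the one called of 19 iron genes, where 0.99% of all genes tested were called lower. Mss51, a mitochondrial zinc finger protein of muscle (ENSMUSG00000021815, chromosome 14, 20482867 to 20496901), had 21.5, 17.9, 12.6, 11.9 and 11.5 scaled TPM in MKO, against 24.01, 37.4, 40.3 and 29.2 in WT libraries (−1.13 ± 0.21, adjusted p = 0.026, limma). Its change was the lowest of those the rule names, and the call was lost without MKO fed replicates 4 or 5 or WT fed replicates 2, 3 or 4 (up to 0.0963). Ostn, the secreted peptide osteocrin or musclin (ENSMUSG00000052276, chromosome 16, 27307489 to 27351212), had 11.5, 13.1, 15.4, 12.4 and 11.8 scaled TPM in MKO, against 19.9, 19.3, 21.1 and 22.2 in WT libraries (−0.68 ± 0.09, adjusted p = 0.00404, limma, up to 0.0221). Slc40a1 and Ostn stood apart between the groups in every library, and Mss51 by a narrow margin, WT fed replicate 1 being closest to the MKO range.

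Pde7a, a phosphodiesterase of cAMP (ENSMUSG00000069094, chromosome 3, 19223108 to 19311322), had 10.1, 9.72, 10.03, 9.33 and 7.84 scaled TPM in MKO, against 15.1, 18.8, 16.96 and 15.4 in WT libraries (−0.81 ± 0.09, adjusted p = 0.00186, limma, up to 0.0111). Its MKO libraries were tightly grouped below the WT range. B3galnt2, an enzyme that glycosylates α-dystroglycan (ENSMUSG00000039242, chromosome 13, 13954469 to 13999103), had 36.4, 35.3, 39.03, 32.2 and 32.4 scaled TPM in MKO, against 53.6, 64.3, 54.4 and 54.9 in WT libraries (−0.69 ± 0.08, adjusted p = 0.00195, limma, up to 0.00988). Rnf128, a membrane-bound ubiquitin ligase (−0.87, adjusted p = 0.00956), Amy1, an amylase with close copies in the genome (−0.77, adjusted p = 0.00622), and Maob, the monoamine oxidase B of the outer mitochondrial membrane (−0.72, adjusted p = 0.00956, all limma), were likewise called in each of the 9 fits. Bmpr1b, a receptor of bone morphogenetic proteins, had low levels of 0.869, 1.20, 0.593, 0.936 and 1.02 scaled TPM in MKO, against 2.16, 2.08, 1.71 and 2.36 in WT libraries (−1.11 ± 0.17, adjusted p = 0.0105, limma, up to 0.0474), and was the one called of 14 genes of BMP signaling and Id factors (median −0.00). Of all genes tested, 0.99% were called lower.

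Calls that were lost in at least 1 of these fits were those of Casp12, a caspase of the endoplasmic reticulum (−0.89, adjusted p = 0.0326), Tspan8, a tetraspanin (−0.79, adjusted p = 0.042), Cacng7, a calcium channel γ-subunit (−0.71, adjusted p = 0.0229), Lrrc30, a leucine-rich repeat protein (−0.70, adjusted p = 0.016), and Gdap1, a protein of mitochondrial fission (−0.68, adjusted p = 0.0209, all limma). The adjusted p reached 0.116 for Casp12, 0.103 for Tspan8, 0.0722 for Cacng7, 0.0558 for Lrrc30 and 0.0667 for Gdap1. Of 11 polyamine genes, 10 lay below 0 (median −0.19; 0.99% of all genes tested were called lower) and Amd2, a copy of the gene of S-adenosylmethionine decarboxylase, was called (−0.82, adjusted p = 0.0326, limma, up to 0.114). Its far more abundant copy Amd1 had 1134, 984, 892, 724 and 1122 scaled TPM in MKO, against 1224, 1835, 1841 and 1502 in WT libraries (−0.72 ± 0.16, adjusted p = 0.0508, limma) and was not called. The level of Amd2 is uncertain, since reads of near-identical copies can be assigned to either.

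A few genes of the muscle membrane and synapse were called. Of 22 genes of the dystrophin complex, which ties the cytoskeleton to the matrix, Sntb1 was higher and Dmd and Sgcb lower. Of all genes tested, 0.41% were called higher and 0.99% lower. Sntb1, β1-syntrophin, had 2.89, 3.26, 3.20, 3.34 and 2.65 scaled TPM in MKO, against 1.67, 1.94, 2.12 and 1.60 in WT libraries (0.72 ± 0.11, adjusted p = 0.00845, limma, up to 0.0338). Dmd, dystrophin, had 5.13, 4.88, 5.20, 5.62 and 4.44 scaled TPM in MKO, against 7.47, 8.13, 6.18 and 7.31 in WT libraries (−0.51 ± 0.09, adjusted p = 0.0258, limma, up to 0.0806). Of the 9 fits that left out a library, 5 lost the call of Dmd, and 6 that of Sgcb, β-sarcoglycan (−0.39, adjusted p = 0.0258, limma, up to 0.089). Musk, the receptor kinase that organizes the neuromuscular junction, had 3.88, 4.32, 4.08, 3.99 and 4.38 scaled TPM in MKO, against 5.71, 7.45, 6.36 and 5.38 in WT libraries (−0.57 ± 0.09, adjusted p = 0.0162, limma), and was lost without WT fed replicate 3 (0.0614). It was the one called of 19 genes of the junction and denervation (median 0.11). Micu3, a regulator of mitochondrial calcium uptake, was the one called of 25 genes of excitation-contraction coupling (−0.45, adjusted p = 0.0451, limma) and was lost in each of the 9 fits that left out a library.

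The fast and slow fiber programs showed no calls. None of 11 slow fiber genes (median −0.07) and 15 fast fiber genes (median −0.06) was called by limma, and 0 passed at an unadjusted p under 0.05 in either list. Of 26 ubiquitin ligases linked to atrophy, Asb5, a muscle subunit of cullin ligases, was called, with 194, 187, 155, 165 and 160.5 scaled TPM in MKO, against 225, 303, 274 and 275 in WT libraries (−0.64 ± 0.10, adjusted p = 0.00974, limma, up to 0.0438). Of all genes tested, 1.4% were called. The atrophy ligases Trim63 (MuRF-1) and Fbxo32 (atrogin-1) had changes of −0.34 and −0.12 (adjusted p = 0.282 and 0.762, limma). Fbxo32 lay on the other side of 0 as deposited (0.15). Mstn, the growth inhibitor myostatin, had 46.5, 45.00, 33.6, 37.8 and 51.00 scaled TPM in MKO, against 43.3, 66.4, 60.3 and 51.3 in WT libraries (−0.37 ± 0.15, adjusted p = 0.283, limma), and the groups overlapped. Its receptor Acvr2b was the one called of 20 genes of myostatin, activin and Smads (−0.53, adjusted p = 0.0437, limma) and was lost in 8 of the 9 fits that left out a library. Foxo1 and Foxo3, which drive atrophy genes, had changes of 0.08 and 0.12 (adjusted p = 0.666 and 0.507, limma).

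Of 46 proteasome genes none was called by limma (unadjusted p under 0.05: 0 higher, 1 lower), nor was any of 28 genes of autophagy and lysosome (0 and 2). Usp20, a deubiquitinase, was the one called of 41 ubiquitin-specific proteases, with 1.88, 1.79, 1.77, 1.94 and 1.96 scaled TPM in MKO, against 1.20, 1.19, 1.28 and 1.31 in WT libraries (0.55 ± 0.08, adjusted p = 0.00972, limma, up to 0.038). Ube2o was the one called of 36 ubiquitin-conjugating enzymes (0.43, adjusted p = 0.0162, limma) and was lost without MKO fed replicate 5 or WT fed replicate 4. Of all genes tested 1.4% were called (0.41% higher, 0.99% lower), so 1 call is not read as a result about these lists. Of 18 genes of calcineurin and NFAT none was called by limma (unadjusted p under 0.05: 0 higher, 3 lower), and Nfatc1 had a change of −0.03 (adjusted p = 0.867, limma; 0.23 as deposited). The 5 tested genes that the study predicted as Nfatc1 targets from these libraries, which are no independent evidence of their direction, all lay above 0 (median 0.23) with none called by limma and 2 higher at an unadjusted p under 0.05. Per2, a repressor of the circadian clock, was the one called of 17 core clock genes (1.03, adjusted p = 0.042, limma, lost in 6 of the 9 fits), and Slc30a2, a zinc exporter, the one of 11 metallothioneins and zinc transporters (−0.82, adjusted p = 0.0427, limma, lost in 7).

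Genes of the extracellular matrix lay on the higher side. Of 34 collagen and matrix genes, 31 lay above 0 (median 0.24) and none was called by limma (unadjusted p under 0.05: 3 higher, 0 lower). Eln, elastin, came closest, with 3.82, 3.40, 4.09, 4.21 and 5.32 scaled TPM in MKO, against 2.89, 2.11, 2.83 and 2.93 in WT libraries (0.61 ± 0.13, adjusted p = 0.0531, limma). Marker genes of other cell types were set beside this list. The 7 fibroblast markers all lay above 0 and summed to 558 to 802 scaled TPM in MKO and 465 to 718 in WT libraries, the 8 macrophage markers all lay above 0 and summed to 88.9 to 194 in MKO and 49.2 to 116 in WT libraries, and 4 tested tendon markers lay above 0 and summed to 58.1 to 174 in MKO and 39.6 to 146 in WT libraries. The 5 tested smooth muscle and pericyte markers all lay above 0 and summed to 156 to 165 in MKO and 131 to 163 in WT libraries, and the 5 Schwann cell markers all lay above 0 and summed to 37.4 to 62.5 in MKO and 37.4 to 46.3 in WT libraries. The ranges overlapped between the genotypes for each of these lists, and no marker was called by limma (at an unadjusted p under 0.05, 1 of the tendon and 1 of the smooth muscle and pericyte markers were higher, and 0 of the fibroblast, macrophage and Schwann cell markers passed). Markers of adipocytes summed to 174 to 239 in MKO and 169 to 216 in WT libraries, and those of endothelium to 56.5 to 67.0 in MKO and 49.5 to 66.0 in WT libraries. The part of these cell types in the matrix values was not tested.

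The highest changes of all belonged to gene models with satellite-like sequence, and these were examined after their values were seen. Gm10800 (ENSMUSG00000075014, chromosome 2, 98666547 to 98667301) had 23789, 12815, 14754, 12222 and 11520.1 scaled TPM in MKO, against 479.7, 426, 364 and 351 in WT libraries (5.17 ± 0.19, adjusted p = 9.71e-08, limma). All MKO libraries were far above all WT libraries, and MKO fed replicate 1 was the highest. Gm10801, Gm21738 and Gm26870 had changes of 5.16, 5.37 and 5.45 (adjusted p = 7.32e-08, 1.06e-07 and 7.32e-08, limma). Gm10801 lies next to Gm10800 on chromosome 2 (98662237 to 98664083), Gm21738 on chromosome 14 (19415857 to 19418930) and Gm26870 on chromosome 9 (3000282 to 3038313).

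These models share sequence although they lie on different chromosomes, and the stretch is shown because reads from it cannot be placed at one of them. The longest run common to the annotated transcripts of the 4 models was 54 bases, read here 5′ to 3′ from Gm10800 (chromosome 2, minus strand, GRCm38). It is in the same orientation in Gm10801 and Gm21738 and in the opposite one in Gm26870, and of 55450 annotated genes 7 held it.
Gm10800 stretch: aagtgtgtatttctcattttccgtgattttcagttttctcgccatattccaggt
These letters are those of the mouse major (γ) satellite, the repeat of pericentromeric heterochromatin, as background knowledge, and no repeat annotation was used. Counting every annotated gene that shared at least 1 run of 30 bases with Gm10800 gave 13 models. Of these, 5 lay below 0.5 TPM in every fed WT library and passed the filter on low values through the MKO libraries alone. The 11 calls among the models are therefore not read as a result about them. The 13 took 3.04%, 1.67%, 1.89%, 1.63% and 1.67% of the TPM in the 5 fed MKO libraries, against 0.0545%, 0.0456%, 0.0399% and 0.0385% in the 4 fed WT libraries, so that the mean share of 1.98% ± 0.601 (SD, n = 5) in MKO was 44.4 times that of 0.0446% ± 0.00725 (SD, n = 4) in WT. The libraries of fasted mice, which share no sample with these, held 0.814% to 1.35% in MKO and 0.00852% to 0.0220% in WT muscle. Values of single models are uncertain, since the authors' counting could split reads among them.

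The changes of fed muscle were then set beside those of fasted muscle, where MKO was compared with WT in 9 other libraries. Of the 164 genes called in fed muscle, 153 had a change on the same side in fasted muscle, 76 (46.3%) were called on that side, and 0 were called on the opposite side. How many of all genes tested lay on the same side in both feeding states was not counted. In fasted muscle 603 of 12111 genes tested were called (4.98%; 2.55% higher and 2.43% lower in MKO). Of the genes higher in fed muscle, 31 of 48 were called higher in fasted muscle, and of those lower, 45 of 116 were called lower. The 48 include the 11 repeat-like models called higher in fed muscle. One fasted library, WT fasted replicate 4, was also left out, and without it the counts were 151, 71, 27 and 44 in the same order, with 5.73% of genes called (2.77% higher and 2.97% lower). The difference between the genotype effects passed the test for 15 of 12111 genes (0.124%; 0.0248% with a higher and 0.0991% with a lower effect in fed muscle), and for 1399 at an unadjusted p under 0.05. Without WT fasted replicate 4 it passed for 38.

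**Figure D5:**
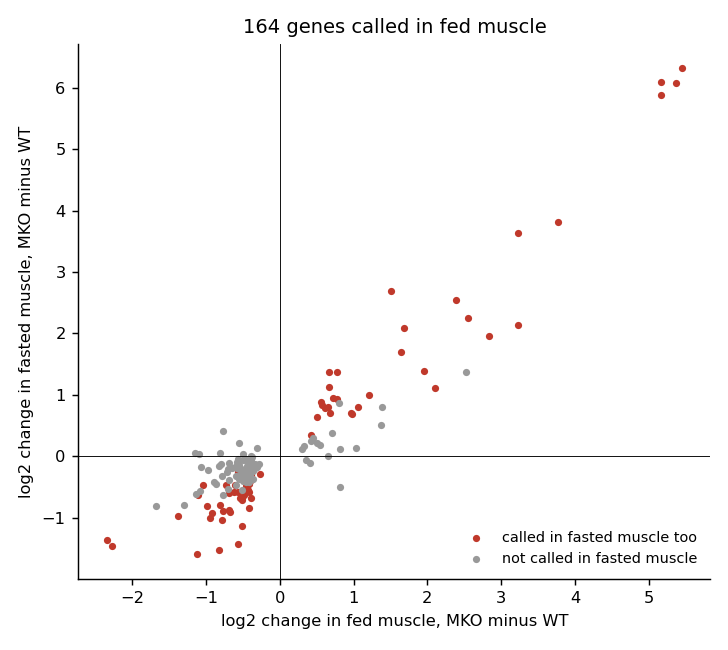
Log2 change of the 164 genes called in fed muscle (horizontal axis) against their change in fasted muscle (vertical axis), MKO minus WT in both at the same median. Red points (76) were called on the same side in fasted muscle, and 153 of the 164 lie on the same side of 0.

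Changes of similar size were seen in fasted muscle for Slc40a1 (−0.92, adjusted p = 2.18e-05), Actc1 (1.70, 0.00395), Plin3 (0.81, 0.00163), Ighg2c (3.82, 1.53e-05), Amy1 (−0.89, 0.000231) and Ostn (−0.87, 0.00171, all limma). Musk changed by −1.42 there (adjusted p = 0.00191, limma) and Gamt by 1.37 (2.05e-05). Myom1 (0.29, adjusted p = 0.203), Asb5 (−0.18, 0.488), Usmg5 (−0.32, 0.172) and Usp20 (0.18, 0.32, all limma) were not called in fasted muscle. A call in fed muscle alone is not read as a difference between the feeding states. For Myom1 the difference between the genotype effects was 0.15 (adjusted p = 0.787, limma). Of the 83 nuclear respiratory chain subunits, 30 were called lower in fasted muscle (median −0.38), and 19 without WT fasted replicate 4 (median −0.25). The subunits called in both feeding states numbered 6 of the 14 called in fed and of the 30 called in fasted muscle. Cox6b1 was one of them (−0.47, adjusted p = 0.0211, limma, in fasted muscle).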

How the data were processed

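Poly(A) RNA of each muscle was sequenced as single reads. The labels name the SMARTER mRNA-seq kit for the libraries, whereas the methods of the study describe fragmented RNA with adapters ligated to both ends, and which was used was not settled here. Mapping to GRCm38 and the TPM per gene were done by the authors in the CLC Genomics Workbench, and the deposited TPM table holds 46983 genes (98.9% of the identifiers matched GENCODE M21). The workbench's version, annotation and strand settings were not given in the sources used. The same table holds fold changes (log2) and FDR values of the authors' comparisons, which were left aside.

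Samples were grouped by the labels. Genes were kept at 0.5 TPM or more in 4 or more of the 9 fed libraries, and libraries were scaled to the same median TPM over these genes. The values log2(scaled TPM + 0.1) were fitted with limma 3.58.1 in R 4.3.3 (group means, eBayes with trend, 7 residual degrees of freedom, two-sided, Benjamini-Hochberg adjusted p under 0.05). The fit was tested on simulated data in which genes varied independently. This does not cover genes that move together, such as the respiratory chain subunits. Adding 0.1 understates the changes of low genes. The p-values measure the spread between these samples. Fasted values came from a like fit of all 18 libraries. The 36 pairs of fed libraries differed by at least 0.111 (median size of log2 difference), so none was a repeat.

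Gene lists (65), the comparison and the rule were chosen with earlier results of these data known. The text names the 15 highest and 15 lowest changes among called genes whose mean reached 5 scaled TPM and whose groups did not overlap (without unnamed models), in each list up to 4 members of smallest adjusted p, genes the paper names and genes that decide checks. Some genes that met the rule are not reported here. Of the lists, 44 had no member called, and those not described are among them. The alternatives were other scalings, filters of none and 2 TPM, pseudocounts of 1 and 0.01, all 18 libraries in the fit, a replicate block, eBayes without trend, an adjusted p under 0.01, and leaving out each library. The fit of the deposited TPM of all 18 libraries was added after the data were seen.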

Additional observations from a re-analysis of the deposited data

Results flagged for a closer look

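In each group of 4 or 5 fed libraries, the highest or lowest library was compared with the rest by the gap to its nearest neighbor over the group's range. Of 186 groups, 12 held a library apart, and chance gives about 1 in 20 groups. Within MKO, replicate 3 was high for Cox6b1 (733 scaled TPM, next 599), Ndufa13 (98.2, next 77.3) and Idh3b (70.9, next 49.5), all 3 genes of mitochondrial oxidative metabolism. MKO replicate 1 was high for the repeat-like models Gm10800 (23789 scaled TPM, next 14754), Gm10801 (1840, next 1081), Gm21738 (2479, next 1430) and Gm26870 (849, next 476), and MKO replicate 5 was low for mt-Co3 (54531, next 60022). Within WT, replicate 1 was high for Adgrg1 (5.56, next 4.60), replicate 2 was high for B3galnt2 (64.3, next 54.9) and low for Eln (2.11, next 2.83), and replicate 4 had the highest mitochondrial share (74.95%, next 74.36%).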

How the results depend on the processing

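Against 164 called genes (48 higher, 116 lower), the counts were 4233 (4147 higher) with deposited TPM, 612 (590 higher, 22 lower) with deposited TPM of all 18 libraries in the fit, 288 (245 lower) with TPM recomputed without mitochondrial genes, 76 lower with no filter, and 52 (21 higher, 31 lower) at an adjusted p under 0.01. Leaving out 1 library gave 69 to 270 (26 to 58 higher, 38 to 220 lower). The mitochondrial share kept its direction without any 1 library (−6.31 to −5.54 points). The median shift as deposited was 0.20 with a pseudocount of 1 and 0.23 to 0.27 without any 1 library. Nuclear respiratory subunits called lower (14) were 4 as deposited, 2 as deposited with all 18 libraries, 29 without mitochondrial genes, 5 with no filter and 3 without trend, and 2 to 63 without 1 library. Mitochondrial genome genes called lower (4) were 1 as deposited, 0 after quantile normalization, with no filter and with all 18 libraries (deposited TPM included), 13 with a filter of 2 TPM, 11 with a pseudocount of 1 and 11 without trend, and 0 to 7 without 1 library. Quantile normalization holds the most abundant genes near no change by its construction. The difference between fed and fasted effects (15) was called for 4 genes as deposited and for 38 without WT fasted replicate 4. The direction turned for mt-Co3 (0.011) and Eno3 (−0.30) after quantile normalization, for Atp5a1 (0.035), Fbxo32 (0.15) and Nfatc1 (0.23) with deposited TPM in both fits, for Ppargc1b without WT fed replicate 3 (−0.018 to 0.12 over the omissions) and for Fbxo32 without WT fed replicate 2 (−0.22 to 0.0042), of which only mt-Co3 was called in the fit reported above. The cause of these differences was not tested. Same-numbered samples did not deviate together (correlations of −0.02, 0.01, −0.06 and 0.17 for 4 numbers), so the labels' numbers were not taken as pairs, and 1 of 4 MKO libraries correlated best with its own number. With the replicate number as a block, 40 genes were called (20 higher, 20 lower), 39 of them among the 164, with 1 nuclear respiratory subunit, 0 mitochondrial genome genes and 3 genes for the difference between fed and fasted effects.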

Other observations

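Called genes on chromosome X were all lower, a pattern noticed after the values were seen. Of 358 tested genes there, 13 (3.63%) were called lower and 0 higher, where 0.99% of all genes tested were called lower. They included Maob, Rnf128 and Dmd, whose values are given above, and Bex1, a small adaptor protein, which had 2.35, 2.03, 2.56, 2.56 and 1.62 scaled TPM in MKO, against 4.51, 4.33, 4.48 and 3.93 in WT libraries (−0.94 ± 0.13, adjusted p = 0.00496, limma, up to 0.0248 without 1 library). Fundc2, a protein of the outer mitochondrial membrane, had 81.1, 86.5, 83.2, 73.3 and 72.5 scaled TPM in MKO, against 117, 106, 108 and 106 in WT libraries (−0.46 ± 0.07, adjusted p = 0.00972, limma, up to 0.0362). In both genes the groups did not overlap. Tceal5 had a change of −0.68 (adjusted p = 0.0153, limma, 0.0572 without WT fed replicate 4), and Maoa, which lies beside Maob, of −0.51 (adjusted p = 0.0415, limma, up to 0.0933, lost in each of the 9 fits that left out a library). The median change of all 358 genes was −0.04, and 208 of them lay below 0. In fasted muscle Bex1 (−1.01, adjusted p = 0.0022), Fundc2 (−0.38, 0.00952) and Tceal5 (−0.90, 0.000773, all limma) were lower as well.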
